A study of Mus musculus with 6 samples.

Results

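Brush border peptidases are membrane enzymes that finish the digestion of dietary protein at the apical surface of the enterocyte. The set consisted of 10 genes given by name: Anpep, Dpp4, Enpep, Mep1a, Mep1b, Mme, Tmprss15, Xpnpep2, Naaladl1 and Ace. All 10 were among the 18161 genes measured, with 16 of 45037 probe sets, namely every probe set whose platform symbol was 1 of these names. The arrays were Affymetrix Mouse Genome 430 2.0, which read transcripts through sets of short probes near their 3' ends. They compared epithelium (arrays A, B and C) with mesenchyme (arrays A, B and C) of the small intestine of C57BL/6 embryos at day E18.5. For each array the tissue of 3 embryos was pooled after 9 hours at 4 °C in a solution that loosens the epithelium, and the whole length from duodenum to cecum was taken, so that regional differences along the gut were averaged. Of 6 pools made per tissue, the submitters had chosen 3 with the least RNA of the other tissue by RT-PCR (Vil1 and Prkg2 for epithelium, Vim, Madcam1 and Actg2 for mesenchyme). The purpose stated for the series was to describe expression in both compartments.

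Pancreatic and gastric proteases leave oligopeptides that brush border peptidases shorten from the amino end, from the carboxyl end or internally, and the enterocyte takes up the resulting amino acids and very short peptides. Most of these enzymes are zinc metallopeptidases, while dipeptidyl peptidase 4 and enteropeptidase are serine peptidases. Several also act outside the gut, where they inactivate or process peptide hormones such as angiotensins, kinins, incretins and natriuretic peptides.

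Levels below are log2 expression values made by the authors with RMA, a method that summarises the probes of a set. A difference is the epithelial mean minus the mesenchymal mean in log2 units, given with the standard error from limma. That error pools the spread of a gene's own 3 arrays per tissue with the spread over all probe sets, and mostly reflects the latter. A gene is called higher or lower at a Benjamini-Hochberg adjusted p under 0.05 over all 18161 genes with a difference of at least 1, which is 2-fold. Where a gene has several probe sets, the one of highest mean level stands for it. The arrays gave no detection calls, and 15 probe sets for Bacillus control RNA had array means of 5.91 to 6.24. Single values of these control probe sets ran from 5 to 8.3. Epithelial arrays had medians of 8.1, 8.6 and 8.3 and mesenchymal arrays 8.7, 8.5 and 8.7, and the number of arrays limits the precision. All 8 epithelial markers (such as Epcam and Cdh1) were higher in the epithelium, and all 6 fibroblast, 6 smooth muscle and 8 endothelial markers were higher in the mesenchyme. So were 6 of 7 leukocyte, 4 of 5 mesothelial and 3 of 4 measured neuronal and glial markers, while 3 of 7 hepatocyte and 1 of 5 measured pancreatic acinar markers were higher in the epithelium. Vil1, Vim and Actg2 are among these markers and had also been used to choose the pools, so their direction is no independent check. In RNA of whole tissue, fewer cells of a type and less RNA per cell cannot be told apart.

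Of the 10 peptidases, 8 passed the test with higher epithelial levels and 0 with higher mesenchymal levels. Over all genes, 8.19% were called higher in the epithelium, 15.9% in the mesenchyme and 24.1% in either direction. The median difference over the 10 genes was 3.50, against -0.17 over all genes. The order ran from Mme, Mep1b, Naaladl1 and Mep1a through Anpep and Dpp4 to Ace and Enpep, and Xpnpep2 and Tmprss15 did not pass. In 9 of the 10 genes every epithelial array lay above every mesenchymal array, as did 16% of all genes. The reverse held for 30.5% of all genes and for 0 of these.

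**Figure D1:**
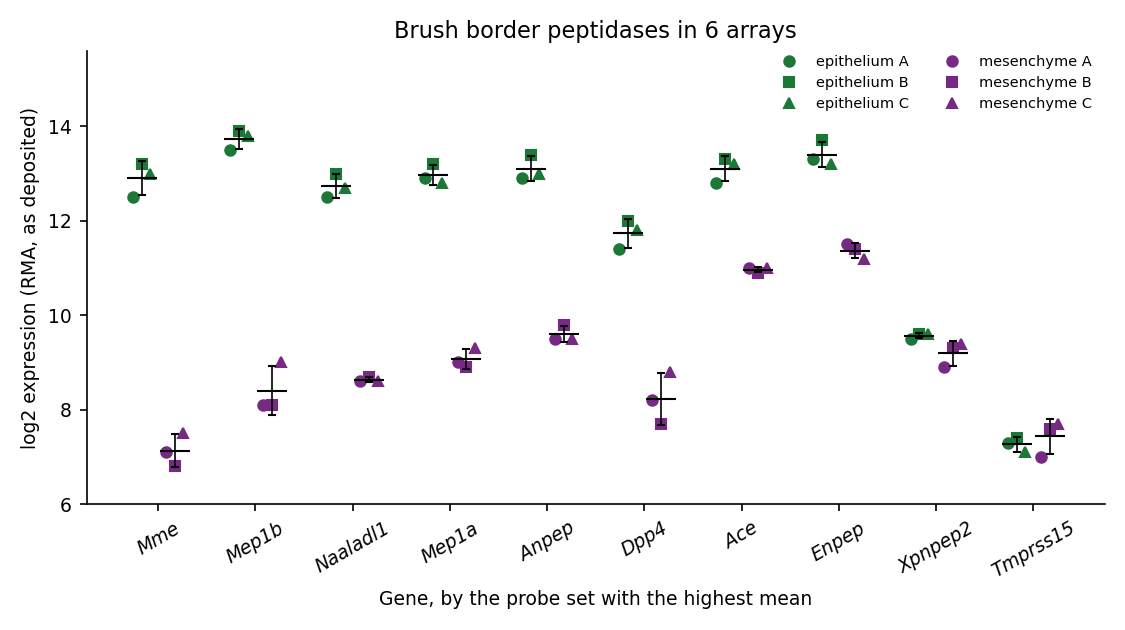
Log2 expression of the 10 peptidase genes (y axis, RMA values as deposited) in the 3 epithelial arrays (green) and the 3 mesenchymal arrays (purple), 1 probe set per gene, ordered by difference. Bars show the mean ± SD of 3 arrays. The tissues stand 5.77 apart for Mme and 2.03 for Enpep, and they overlap for Tmprss15.

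The endopeptidases neprilysin and the meprins cut inside the peptide chain. Mme encodes neprilysin, a zinc endopeptidase that degrades enkephalins, tachykinins and natriuretic peptides. Its log2 level was 12.5, 13.2 and 13 in epithelium A, B and C and 7.1, 6.8 and 7.5 in mesenchyme A, B and C. The gap between the lowest epithelial and the highest mesenchymal array was wider than the range within either tissue. The difference was 5.77 ± 0.24 (adjusted p = 7.89e-21 in limma), or 54.4-fold. Among all genes it was the difference of rank 9 in favour of the epithelium.

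Meprins are astacin-type metalloendopeptidases built from alpha and beta subunits, encoded by Mep1a and Mep1b. Mep1b was at 13.5, 13.9 and 13.8 in the epithelial arrays and at 8.1, 8.1 and 9.0 in the mesenchymal arrays. Mesenchyme C thus stood above the other mesenchymal arrays, with an SD of 0.52 in that tissue, and still far below the epithelium. The difference was 5.33 ± 0.25 (adjusted p = 9.68e-20 in limma), or 40.3-fold. Mep1a was at 12.9, 13.2 and 12.8 in the epithelium against 9.0, 8.9 and 9.3 in the mesenchyme. Both tissues had an SD of 0.21 for this gene and did not overlap. Its difference was 3.90 ± 0.23 (adjusted p = 6.88e-17 in limma), or 14.9-fold. A second Mep1a probe set, given below, differed by as much as that of Mep1b.

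Exopeptidases release residues from an end of the chain. Naaladl1 belongs to the family of glutamate carboxypeptidase II and was first described in the ileum. It was at 12.5, 13 and 12.7 in the epithelium against 8.6, 8.7 and 8.6 in the mesenchyme. The mesenchymal arrays agreed closely (SD 0.06), and the difference was 4.10 ± 0.23 (adjusted p = 1.36e-17 in limma). Anpep encodes aminopeptidase N, which removes neutral residues from the amino end. Its level was 12.9, 13.4 and 13 in the epithelium against 9.5, 9.8 and 9.5 in the mesenchyme. The arrays of each tissue lay close together, and the difference was 3.50 ± 0.23 (adjusted p = 1.64e-15 in limma), or 11.3-fold.

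Dpp4 encodes the serine peptidase that removes dipeptides ending in proline or alanine and that inactivates incretin hormones. It was at 11.4, 12.0 and 11.8 in the epithelium against 8.2, 7.7 and 8.8 in the mesenchyme. The mesenchymal values were the most widely spread among the 10 genes (SD 0.55), with mesenchyme C highest and B lowest. The difference was 3.50 ± 0.25 (adjusted p = 2.23e-14 in limma), the same size as that of Anpep.

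Ace and Enpep, whose products act on angiotensins, were higher in the epithelium by smaller steps. Ace encodes angiotensin-converting enzyme, a peptidase that releases dipeptides from the carboxyl end. It was at 12.8, 13.3 and 13.2 in the epithelium against 11.0, 10.9 and 11.0 in the mesenchyme. The tissues did not overlap, and the difference was 2.13 ± 0.23 (adjusted p = 5.37e-10 in limma), or 4.39-fold. Enpep encodes aminopeptidase A, which removes acidic residues and converts angiotensin II. It was at 13.3, 13.7 and 13.2 in the epithelium against 11.5, 11.4 and 11.2 in the mesenchyme. The difference was 2.03 ± 0.23 (adjusted p = 1.94e-09 in limma), or 4.09-fold.

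Xpnpep2 and Tmprss15 did not pass. Xpnpep2 encodes membrane-bound aminopeptidase P, which removes a residue that precedes proline. It was at 9.5, 9.6 and 9.6 in the epithelium against 8.9, 9.3 and 9.4 in the mesenchyme. The arrays did not overlap, yet the difference was 0.37 ± 0.23 (adjusted p = 0.213 in limma). Scaled to equal medians, by quantiles or by cyclic loess, it was 0.67, 0.69 and 0.65 with adjusted p-values of 0.0133, 0.0096 and 0.0125, still short of 2-fold. Tmprss15 encodes enteropeptidase, the duodenal protease that activates trypsinogen. It was at 7.3, 7.4 and 7.1 in the epithelium against 7.0, 7.6 and 7.7 in the mesenchyme, so that the tissues overlapped. The difference was -0.17 ± 0.24 (adjusted p = 0.617 in limma), and its sign turned under all 3 scalings (0.13, 0.13 and 0.03). With 1 probe set each, these values do not show whether the transcript was absent.

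Neighbours in the order of differences were compared within arrays, as the log2 value of 1 gene minus that of the next, in 9 pairs. Epithelial and mesenchymal arrays did not overlap for Mep1b against Naaladl1 (a step of 1.23), Dpp4 against Ace (1.37), Enpep against Xpnpep2 (1.67) and Xpnpep2 against Tmprss15 (0.53). The exact permutation test, two-sided, gave p = 0.1 for each of these 4 pairs, which is the smallest that 3 against 3 arrays allow, and an adjusted p of 0.225. For Mme against Mep1b (0.43), Naaladl1 against Mep1a (0.20), Mep1a against Anpep (0.40), Anpep against Dpp4 (0) and Ace against Enpep (0.10) the arrays overlapped, with exact permutation p-values from 0.2 to 1. No pair could pass with so few arrays, and an overlap does not show that neighbours were alike. The order is that of 1 probe set per gene, and it changes for Mme, Mep1a and Dpp4 with their other probe sets.

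Of the 10 genes, 6 had a single probe set, and 4 had several. Of their 16 probe sets, 13 were called higher in the epithelium. All probe sets of Mme, Mep1a and Ace were called higher in the epithelium, as were 3 of 4 for Dpp4. Over all probe sets, 5.98% were called higher in the epithelium. The second Mme probe set (1422975_at) was at 11.3, 12.0 and 11.2 in the epithelium against 7.5, 7.5 and 8.0 in the mesenchyme, a difference of 3.83 ± 0.24. It fell short of the first (1455961_at) by 1.93. The second Mep1a probe set (1447252_s_at) was at 12.6, 12.8 and 12.3 in the epithelium against 7.2, 7.0 and 7.5 in the mesenchyme. Its difference of 5.33 ± 0.23 exceeded that of 1450719_at by 1.43. For Ace the probe sets were closer, with 2.60 ± 0.23 for 1451911_a_at and 2.13 ± 0.23 for 1427034_at.

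Dpp4 had the widest disagreement. The probe set 1459973_x_at was at 10.2, 11.1 and 10.8 in the epithelium against 6.8, 6.2 and 6.4 in the mesenchyme, a difference of 4.23 ± 0.25. For 1441342_at the difference was 1.80 ± 0.24. The probe set 1438279_at, at 9.5, 10.1 and 10.0 against 9.3, 9.0 and 8.9, differed by 0.80 ± 0.23 (adjusted p = 0.0061 over probe sets in limma), short of 2-fold. It was called under all 3 scalings (1.10, 1.13 and 1.08). All 9 pairs of probe sets of 1 gene gave within-array differences that did not overlap between tissues (exact permutation tests, two-sided, p = 0.1 each, the smallest possible, adjusted p = 0.1). The size of a gene's difference therefore rested on the probe set read, while its direction did not. Whether these probe sets read different transcript ends was not tested.

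**Figure D2:**
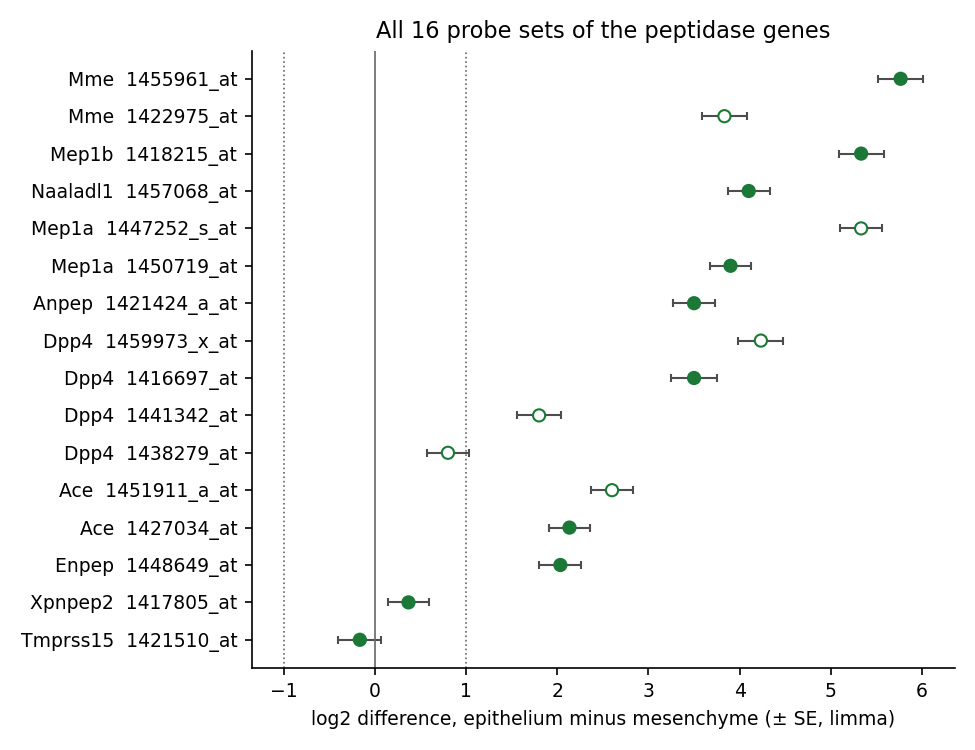
Difference between epithelium and mesenchyme (x axis, log2, ± SE from limma) for all 16 probe sets of the 10 genes. Filled points are the probe sets that represent their gene, and dotted lines mark 2-fold. The Dpp4 probe sets run from 0.80 to 4.23.

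The 8 peptidases called were not alike in the signal they left in the mesenchyme. On the linear scale, Mme stood in the mesenchymal arrays at 1.46% to 2.37% of its mean epithelial level, and Mep1b at 2.01% to 3.76%. Naaladl1 (5.70% to 6.11%), Mep1a (5.97% to 7.87%), Anpep (8.25% to 10.2%) and Dpp4 (6.11% to 13.1%) followed. Ace (21.8% to 23.3%) and Enpep (21.8% to 26.8%) were above all 8 epithelial markers, which ranged from 1.10% to 12.5% with a median of 4.17%. With their other probe sets, Mme was at 6.25% to 8.84%, Mep1a at 2.11% to 2.98% and Ace at 14.4% to 17.7%. For Dpp4 the other 3 ran from 4.42% to 67.5%. Signal near background raises such percentages, most for genes dim in the mesenchyme such as Mme (log2 6.8 to 7.5). It bears less on Ace (10.9 to 11.0) and Enpep (11.2 to 11.5).

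**Figure D3:**
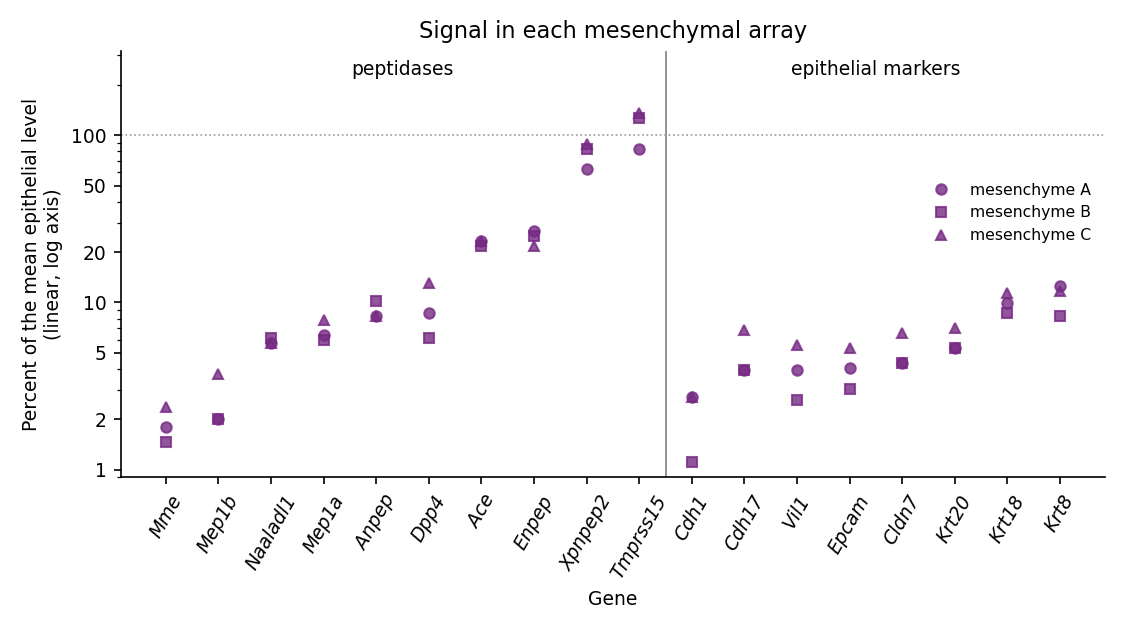
Signal in mesenchyme A, B and C as percent of the gene's mean epithelial level on the linear scale (y axis, logarithmic) for the 10 peptidases and 8 epithelial markers. Ace and Enpep lie between 21.8% and 26.8%, whereas no epithelial marker exceeds 12.5%.

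The mean of the 8 epithelial markers, which include Vil1 used in choosing the pools, differed between tissues by 4.30. Relative to it within each array, the difference of Mme was 1.47 and that of Mep1b 1.04 larger. The shortfall was -0.40 for Mep1a, -0.80 for Anpep and Dpp4, -2.16 for Ace, -2.26 for Enpep, -3.93 for Xpnpep2 and -4.46 for Tmprss15. These arrays did not overlap between tissues (exact permutation tests, two-sided, p = 0.1 each, the smallest possible, adjusted p = 0.111 over 10 comparisons). For Naaladl1 they overlapped (-0.20, exact permutation p = 0.7). The sign turned with the probe set for Mme (-0.46 with 1422975_at) and for Mep1a (1.04 with 1447252_s_at). The other Dpp4 probe sets gave -0.06, -2.50 and -3.50, and the other Ace probe set gave -1.70.

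The summed linear signal of the 8 epithelial markers was 4662, 3629 and 5779 in mesenchyme A, B and C, against 74287 to 99931 in the epithelial arrays. Mesenchyme C, highest for these markers, was also highest for Mep1b and for both probe sets of Mep1a and of Mme. It was highest too for Xpnpep2 (9.4) and Tmprss15 (7.7), which were not called between tissues. For Dpp4 it was highest with 1416697_at alone, and mesenchyme A was highest with the other 3 probe sets, while Anpep, Enpep and Naaladl1 were not highest there, and for Ace array C was level with A with 1427034_at and lowest with 1451911_a_at. Without mesenchyme C the differences of Mep1b and Dpp4 were 5.63 and 3.78. Apart from enterocytes, Ace is known from endothelium and Enpep from pericytes. The 8 endothelial markers summed to 22408 to 26889 in the mesenchyme and 1864 to 2392 in the epithelium, and all were called higher in the mesenchyme. Of 8 markers of pericytes and vascular muscle, 7 were called higher in the mesenchyme, with sums of 20516 to 22755 against 2799 to 3513. The part of any of these cells in the mesenchymal signal of the peptidases was not tested.

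Within the epithelium, array A was the only lowest array for 7 of the 10 peptidases and array B the only highest for 9. The median deviation of the 10 genes from their epithelial mean was -0.22 in A, 0.25 in B and 0 in C. Over all genes the same deviations were -0.20, 0.27 and -0.03, so the 10 genes deviated by about as much as all genes.

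The closest relatives of these enzymes were compared between the tissues in the same way. Of 54 listed genes, 49 were measured, with a median difference of -0.13. Of these, 13 were called higher in the epithelium, 7 higher in the mesenchyme and 29 neither. For comparison, 8.19% of all genes were called higher in the epithelium and 15.9% in the mesenchyme. The 7 of 49 were thus near the share over all genes. The same shares stand beside the counts of the lists below. The other listed genes were not analysed here.

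In the S9 family, Fap, a marker of activated fibroblasts and the nearest relative of Dpp4, went the other way. It was at 6.0, 6.2 and 6.4 in the epithelium against 10.8, 10.5 and 10.6 in the mesenchyme, a difference of -4.43 ± 0.23 (adjusted p = 1.59e-18 in limma). The mesenchymal arrays thus lay 21.6-fold above the epithelial arrays, whose level was near that of the bacterial controls. Apeh, a cytosolic acylpeptide hydrolase, was higher in the epithelium by 1.40 ± 0.23. Prepl lay on the mesenchymal side (-1.17 ± 0.24), but its call was lost under each scaling (-0.85 to -0.89) and in the mean of its probe sets (-0.38).

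Among astacins, the relatives of the meprins were higher in the mesenchyme or did not pass. Tll1, a tolloid-like protease, was at 5.7, 5.4 and 5.7 in the epithelium against 7.5, 7.0 and 7.2 in the mesenchyme (-1.63 ± 0.23). Bmp1, which trims procollagen, differed by -1.03 ± 0.23, and its call ended under each scaling (-0.73 to -0.82) and without epithelium A (-0.92) or mesenchyme A (-0.97). In the neprilysin family, none of 6 relatives of Mme was higher in the epithelium. Ece1, which activates endothelin, was lower there by -1.20 ± 0.26, though not with equal medians (-0.90), without epithelium A (-0.87) or in the mean of its probe sets (-0.57).

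Relatives of the aminopeptidases lay on the epithelial side where they passed. Of 8 measured M1 relatives of Anpep and Enpep, 4 were called higher in the epithelium and none higher in the mesenchyme. They were Rnpep, aminopeptidase B (1.93 ± 0.23), Lta4h, which makes leukotriene B4 (1.40 ± 0.23), Erap1, which trims peptides for class I histocompatibility molecules (1.10 ± 0.23), and Rnpepl1 (1.00 ± 0.24). The last 2 were not called without epithelium B (0.93 and 0.80), and Rnpepl1 neither without mesenchyme C (0.95) nor in the mean of its probe sets (0.72). Of 5 relatives of Xpnpep2, the cytosolic Xpnpep1 was higher in the epithelium by 1.37 ± 0.23 and Pepd, which splits dipeptides ending in proline, by 1.20 ± 0.24.

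In the family of Naaladl1, Qpct, glutaminyl cyclase, was higher in the mesenchyme (-3.07 ± 0.24), and so was Naalad2 (-1.57 ± 0.23). The Naalad2 call rested on a probe set that can read other transcripts, and its other probe set gave -0.27, with -0.92 for the mean of both. Cpq, a secreted carboxypeptidase, differed by 0.53 ± 0.24 and did not pass. Cltrn, collectrin, a partner of amino acid transporters at the apical membrane, was at 8.1, 9.4 and 8.4 in the epithelium against 5.3, 5.8 and 5.7 in the mesenchyme (3.03 ± 0.26). Of 12 transmembrane serine proteases and related genes, 5 were higher in the epithelium and none in the mesenchyme. They were led by Prss8, prostasin (4.03 ± 0.23), Tmprss4 (2.83 ± 0.23), Hpn, hepsin (2.33 ± 0.23), and St14, matriptase (1.73 ± 0.23), in contrast to Tmprss15.

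**Figure D4:**
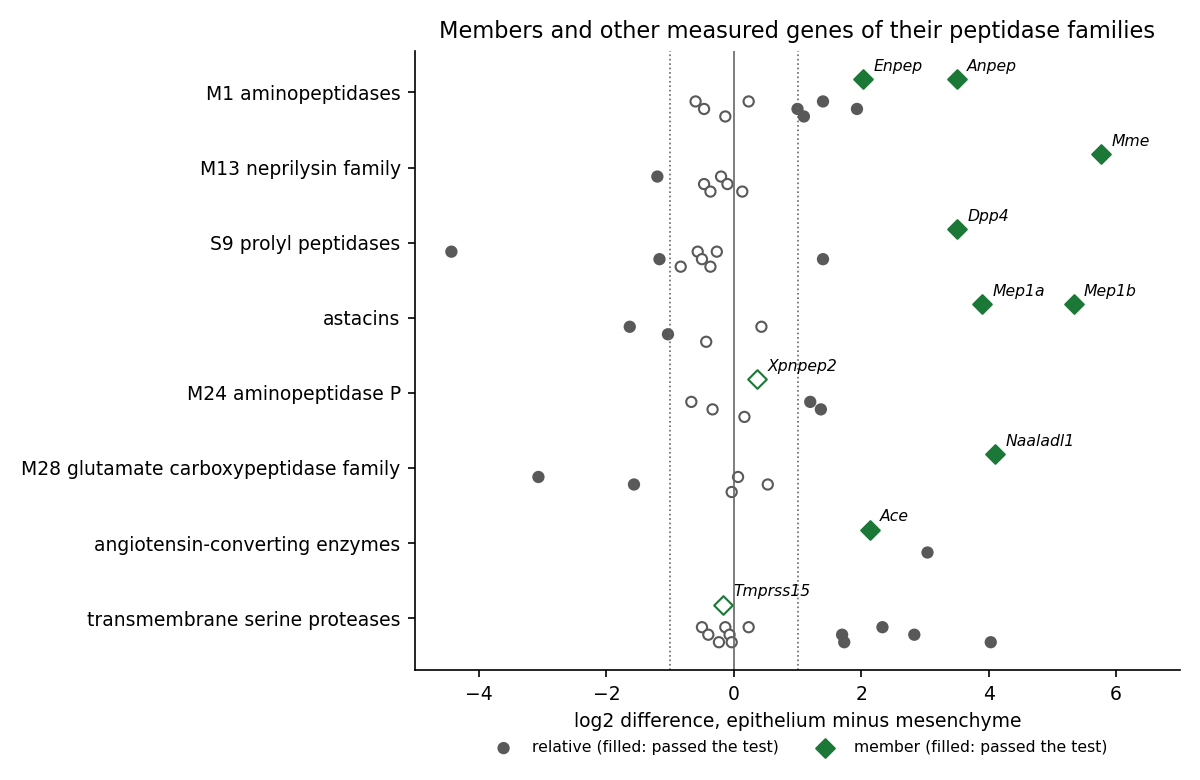
Differences between epithelium and mesenchyme (x axis, log2) for the 10 peptidases (diamonds) and the measured genes of their families (circles), 1 family per row. Filled symbols passed the test, and dotted lines mark 2-fold. The circle at -4.43 in the S9 row is Fap.

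Peptides left by the brush border enzymes enter the enterocyte through a proton-coupled transporter and are split in the cytosol. Of 16 genes listed for oligopeptide uptake and peptidases, most of them cytosolic, 8 were higher in the epithelium and 1 in the mesenchyme. The median difference was 0.88, and Xpnpep1 and Pepd, counted among these 8, were already counted as relatives of Xpnpep2 above. Slc15a1, the intestinal oligopeptide transporter PepT1, was at 11.1, 11.7 and 11.6 in the epithelium against 6.8, 6.9 and 7.1 in the mesenchyme (4.53 ± 0.23, adjusted p = 1.59e-18 in limma). The cytosolic dipeptidase Cndp2 (3.20 ± 0.22) was also higher there. So were the dipeptidase Cndp1 (2.90 ± 0.23) and the amino acid acylase Pm20d1 (2.73 ± 0.24), whose products are secreted rather than cytosolic. Slc15a3, a lysosomal transporter of immune cells, was higher in the mesenchyme (-2.53 ± 0.22).

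Of 6 measured other apical peptidases, 3 were higher in the epithelium. They were Cpm, a membrane carboxypeptidase (3.60 ± 0.25), Tmprss4 and Tmprss2 (1.70 ± 0.23), while Ggt5, a gamma-glutamyl transferase, was higher in the mesenchyme (-1.43 ± 0.23). Tmprss4 and Tmprss2 were already counted among the transmembrane serine proteases above. Of 8 measured brush border hydrolases of other substrates, 5 were higher in the epithelium, with a median difference of 3.65. Mgam, maltase-glucoamylase (5.70 ± 0.24), Lct, lactase (4.63 ± 0.26), Alpi, alkaline phosphatase (4.30 ± 0.24), and Asah2, neutral ceramidase (3.97 ± 0.24), were the widest apart.

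Enteropeptidase acts on the pancreatic zymogen trypsinogen, which in turn activates the others. Of 11 measured genes, 9 did not pass, with a median difference of 0 over the list, and 2 were higher in the epithelium, Spink1, a trypsin inhibitor (4.73 ± 0.23), and Cela1 (1.87 ± 0.24), and none was called higher in the mesenchyme.

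Of 9 measured genes of the renin-angiotensin system other than Ace and Enpep, 5 did not pass, 3 were higher in the mesenchyme and 1 in the epithelium. Agtr2, an angiotensin II receptor, was at 5.6, 5.6 and 5.8 in the epithelium against 8.9, 8.6 and 8.8 in the mesenchyme (-3.10 ± 0.23). Agtr1a, the receptor that mediates contraction and salt retention, differed by -2.73 ± 0.24, and Agt, the precursor angiotensinogen, by -1.47 ± 0.23. Atp6ap2, a subunit of the vacuolar proton pump that also binds prorenin, was higher in the epithelium by 1.10 ± 0.23, a call that ended with quantile scaling (0.96) and without epithelium B (0.92). Agtr1b, a further angiotensin II receptor, and Mas1, a receptor of angiotensin fragments, each differed by -0.37 and did not pass (adjusted p = 0.218 and 0.215 in limma).

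The genes most like the mean profile of the 10 peptidases were sought by Euclidean distance over row-centred values of the 6 arrays. Acsl5, an acyl-CoA synthetase of fat absorption, was nearest at 0.08, followed by Prr15l at 0.15 and Acot3, a peroxisomal thioesterase, at 0.17. Their differences were 3.03 ± 0.23, 3.00 ± 0.23 and 3.00 ± 0.23, and the mean profile of the peptidases differed by 3.05. The genes were picked for this closeness, so the match of differences follows from the choice. No single peptidase had such a difference, since none lay between Ace at 2.13 and Dpp4 at 3.50.

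Promoter sequences from RefSeq (GRCm38.p6), 250 bases before to 50 after a start site, were matched for 8 of the 10 genes, with 11 promoters. They were searched on both strands for 4 short motifs of intestinal transcription factors, because 6 of these 8 genes were higher in the same tissue. The HNF1 core was searched as GTTAAT. For GATA factors the letters were AGATAA. For CDX factors they were TTTATG. For HNF4 they were AAAGTCC. No motif contains another. Over 32851 promoters of the table, 7.10%, 11.2%, 11.9% and 4.21% held them, and of the 11 promoters 1, 1, 2 and 1. The 4 promoters with a match are shown from 250 bases before to 30 after the start, with the matches in capitals. Dpp4 (chr2:62412202-62412481, minus strand) had a GATA match that began 32 bases before the start. Mep1a (chr17:43502744-43503023, minus strand) had a CDX match after the start. The first of the Ace promoters (chr11:105967698-105967977, plus strand) had an HNF4 match on the opposite strand, and Tmprss15 (chr16:79091068-79091347, minus strand) had a CDX match and an HNF1 match on the opposite strand.
Dpp4: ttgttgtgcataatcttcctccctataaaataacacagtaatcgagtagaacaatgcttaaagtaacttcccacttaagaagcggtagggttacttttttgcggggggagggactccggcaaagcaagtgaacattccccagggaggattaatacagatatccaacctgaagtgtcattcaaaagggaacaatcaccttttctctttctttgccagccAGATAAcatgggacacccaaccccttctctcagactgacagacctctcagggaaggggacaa
Mep1a: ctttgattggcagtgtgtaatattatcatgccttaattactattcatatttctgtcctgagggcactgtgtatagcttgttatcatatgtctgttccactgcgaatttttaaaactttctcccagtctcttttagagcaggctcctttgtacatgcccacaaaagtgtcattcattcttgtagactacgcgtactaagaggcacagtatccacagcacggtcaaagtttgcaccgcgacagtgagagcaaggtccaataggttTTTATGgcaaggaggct
Ace: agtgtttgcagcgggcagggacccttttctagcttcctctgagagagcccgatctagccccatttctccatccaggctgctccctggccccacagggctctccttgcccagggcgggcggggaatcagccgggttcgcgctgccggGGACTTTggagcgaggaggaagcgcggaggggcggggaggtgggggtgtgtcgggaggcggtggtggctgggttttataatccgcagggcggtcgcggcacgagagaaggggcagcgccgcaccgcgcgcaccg
Tmprss15: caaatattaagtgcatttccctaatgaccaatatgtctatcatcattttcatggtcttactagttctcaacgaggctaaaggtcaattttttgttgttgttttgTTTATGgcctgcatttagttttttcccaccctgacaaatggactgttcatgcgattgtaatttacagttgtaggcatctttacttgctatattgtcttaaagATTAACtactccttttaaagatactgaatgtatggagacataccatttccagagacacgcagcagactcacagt
The gene with matches to 2 motifs was thus Tmprss15, which did not pass between tissues, and the promoters of Anpep, Enpep, Mme and Xpnpep2 held no match. A match is a description of these letters only. Mep1b and Naaladl1 were not analysed here for promoters.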

How the data were processed

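Per the submitters' processing notes the authors used RMA, and the deposited table gives log2 values with 1 decimal for each probe set. The version of RMA and any step between arrays are not given in the sources used here. From 45101 probe sets 64 controls were removed, and 34945 of the rest had 1 gene symbol in the platform annotation, 932 several and 9160 none. Symbols were brought up to date through RefSeq gene IDs (34741) or symbols and synonyms (202).

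Tissues were compared on the deposited log2 values with limma 3.58.1 (R 4.3.3), lmFit and eBayes over all 45037 probe sets with no covariate (4 residual and 31.7 prior degrees of freedom). A gene took the fit of its probe set with the highest mean, and p-values were adjusted over 18161 genes. A fold is 2 raised to the difference and understates changes near background. The p-values rest on the spread between chosen pools, taken mostly over all probe sets rather than from the gene itself. No low-value filter was applied. The fit was tested on simulated data. Single values were compared with exact permutation tests (scipy 1.17.1).

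The members and lists were chosen with earlier results of these data known. All members were named, and from each list up to 4 called genes with the largest difference, up to 2 of the minority direction and, for relatives, the gene with the highest mean, besides the 3 genes nearest to the members' profile. Agtr1b and Mas1 were named outside this rule. Sequences come from RefSeq. Alternatives were 3 scalings, 2 choices of probe sets, a filter on dim genes, a variance trend, no minimum difference, the letter as a block, leaving out each array and, added after the data were seen, a spread shared over genes only. The labels state no pairing by the letters A, B and C, and the main fit used none. With 3 arrays per tissue, the correlations given below cannot decide whether the letters pair the samples.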

Additional observations from a re-analysis of the deposited data

How the results depend on the processing

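The count of 8 peptidases higher in the epithelium and 0 in the mesenchyme was the same under all 16 alternatives. Their adjusted p-values in limma moved widely, for Mme from 3.10e-136 to 1.06e-06 and for Enpep from 3.07e-21 to 1.24e-04. The exponents given above are thus those of 1 setting. The difference of Tmprss15, which did not pass in any alternative, changed sign to 0.13 with equal medians and quantiles and 0.033 with cyclic loess. Scaling shifted the median difference over all genes by 0.30 (medians), 0.27 (quantiles) and 0.21 (loess), and the share of calls higher in the mesenchyme was 49.4%, 53% and 55.4%, against 66%. With no minimum difference, 2513 genes were called higher in the epithelium and 4977 in the mesenchyme, instead of 1488 and 2892. Relatives of the peptidases called higher in the mesenchyme numbered 4 with equal medians, 4 when probe sets of a gene were averaged and 11 with no minimum difference, instead of 7. Pancreatic genes called higher in the mesenchyme numbered 3 with no minimum difference and 0 to 2 with 1 array left out, instead of 0. Renin-angiotensin genes called higher in the epithelium numbered 0 with quantiles and 0 to 1 with 1 array left out, instead of 1. Of 38 other list genes named by the rule for lists, 31 kept their call in all alternatives. Same-lettered arrays deviated together with correlations of -0.31, -0.15 and 0.12, and not every array correlated best with its own letter. With the letter as a replicate block, 8 peptidases, 1482 genes higher in the epithelium and 2881 in the mesenchyme were called. Signal near background, with no detection calls, limits what can be said of Tmprss15 and of low mesenchymal levels.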
